A study of Mus musculus with 6 samples.

Results

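A set of 10 genes of the NF-kB pathway was followed in submandibular glands of mouse embryos treated with blebbistatin: Nfkb1, Nfkb2 and Relb, which encode subunits of the factor, Nfkbia, Tnfaip3 and Birc3, which encode regulators of the pathway, and Icam1, Cxcl1, Cxcl10 and Ccl20, which encode an adhesion molecule and chemokines. They were picked by name and were found as 10 of the 24067 genes in the deposited gene table. The comparison set 3 libraries of blebbistatin-treated glands (replicates 1 to 3) against 3 libraries of control glands (replicates 1 to 3), all from ICR embryos at embryonic day 13. Blebbistatin inhibits myosin II, the actin motor that makes non-muscle cells contract, and the comparison asks which transcripts differ when that motor is blocked. Dose, duration, vehicle, pooling of glands and strandedness were not stated. Whether replicate libraries stem from independent cultures is not labelled either, so that a p-value here reflects library-to-library spread that could be technical.

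NF-kB is a family of dimeric transcription factors that inhibitor proteins hold in the cytoplasm. Receptors for tumour necrosis factor, interleukin 1, microbial products or ectodysplasin activate a kinase complex, IKK, which marks the inhibitor for destruction and lets the dimer reach kB sites in the DNA. Many of the target genes encode chemokines and adhesion molecules, and others encode the inhibitor and subunits of the factor itself, so that the pathway feeds back on itself. In mouse salivary glands, ectodysplasin signalling through NF-kB is known to promote branching.

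The promoter windows were searched for a consensus kB motif close to the start of transcription. RefSeq windows on GRCm38.p6, with 250 bases before and 50 after the start, were at hand for 8 of the 10 genes, all except Nfkb1 and Relb. The motif was GGGRNNYYCC, 10 bases long, where R is A or G, Y is C or T and N is any base. It was searched on both strands with overlapping matches merged. It was present in at least 1 window of 6 of these 8 genes (75.0%). Among tested genes with a window it was present in 1105 of 8685 (12.7%), and among all windows in 2779 of 32851 (8.46%). The 10 genes were picked as members of the NF-kB pathway, known targets among them, so the difference in share is a description and no test. The stretches shown run from 20 bases before the match farthest from the start to the base before the start, on the strand of the gene, and capitals mark the kB matches.
Cxcl10, chr5:92348890-92349068, minus strand: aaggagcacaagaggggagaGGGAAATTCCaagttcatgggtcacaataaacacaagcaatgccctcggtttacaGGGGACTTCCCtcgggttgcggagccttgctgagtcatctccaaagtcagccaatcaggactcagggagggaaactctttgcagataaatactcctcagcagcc
Ccl20, chr1:83116666-83116765, plus strand: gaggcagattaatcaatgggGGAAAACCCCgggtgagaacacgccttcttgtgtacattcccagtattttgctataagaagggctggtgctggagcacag
Cxcl1, chr5:90891154-90891244, plus strand: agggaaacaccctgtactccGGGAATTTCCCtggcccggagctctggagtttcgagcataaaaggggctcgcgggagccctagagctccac
Nfkbia, chr12:55492648-55492696, minus strand: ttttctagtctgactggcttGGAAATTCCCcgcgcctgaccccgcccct
Tnfaip3, chr10:19015411-19015555, minus strand: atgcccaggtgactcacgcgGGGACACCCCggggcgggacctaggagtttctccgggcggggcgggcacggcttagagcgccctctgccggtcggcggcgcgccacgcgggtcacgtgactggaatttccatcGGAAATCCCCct
Nfkb2, chr19:46304678-46304736, plus strand: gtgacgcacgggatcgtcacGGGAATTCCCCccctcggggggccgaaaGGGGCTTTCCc
Cxcl10 had 2 separate matches, one from 159 to 150 and one from 104 to 94 bases before the start. In Ccl20 the match lay from 80 to 71 bases before the start, in Cxcl1 from 71 to 61 and in Nfkbia from 29 to 20. Tnfaip3 had matches from 125 to 116 and from 12 to 3 bases before the start that is shown, and its window at another annotated start had no match. Nfkb2 is shown for the outermost of its 3 annotated starts, with matches from 39 to 29 and from 11 to 2 bases before it, and both other windows also held a match. The windows of Icam1 and Birc3 held none. Sites that depart from this motif or lie outside the windows were not searched for, so these genes may still carry a kB site. The start used for the Icam1 window lies upstream of the gene's first base in the deposited annotation, and 0 of its GENCODE transcripts hold the end of that window, so this start is less sure than the others. A match here is a description of letters and not a measure of binding.

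The libraries were deep enough for most of these genes. From the size of the smallest steps in the values, depth was estimated at 29200000 to 30000000 fragments in blebbistatin libraries and 29800000 to 35700000 in control libraries. Values are FPKM (fragments scaled by transcript length and by library depth), and tests used limma on log2(FPKM + 1) for the 11540 genes with a mean of at least 1 FPKM, with an adjusted p of 0.05 as the threshold. All 10 genes met that minimum, but Cxcl10 and Ccl20 averaged under 1 FPKM in control libraries and met it only through the treated group, so that a count over the 10 genes is not independent of the direction. The labelled tissue showed epithelial markers, with Epcam, an epithelial adhesion molecule, at 371, 405 and 378 FPKM in blebbistatin libraries and 427, 444 and 402 FPKM in control libraries. The 9 mesenchymal markers summed to 4.38, 7.50 and 9.24 FPKM in blebbistatin libraries and to 21.5, 5.78 and 5.68 FPKM in control libraries, with control replicate 1 the highest. These sums were far below those of 8 epithelial markers, which ran from 1276 to 1697 FPKM in blebbistatin libraries and from 1351 to 1734 FPKM in control libraries. The values may therefore stand for the epithelium more than for a whole gland.

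The 10 genes all had higher mean values under blebbistatin, and the 3 treated libraries differed widely among themselves. In each of the 10 genes the order among treated libraries was the same, with replicate 1 highest and replicate 3 lowest, and replicate 1 was the highest of the 6 libraries. Over all genes tested, 27.3% had that order, 18.6% had blebbistatin replicate 1 as the highest library and 55.2% had a log2 fold change above 0. The median of the 10 genes lay 0.81, 0.52 and 0.04 above the control mean on the log2(FPKM + 1) scale in blebbistatin replicates 1 to 3, and in control replicates 1 to 3 it lay at 0.08, -0.05 and -0.08. By this median, blebbistatin replicate 3 lay close to the controls. In 7 of the 10 genes its value was within or below their range. The same held in 9432 of the 11540 genes tested, so this count does not set the 10 genes apart. Because RNA was taken in bulk, more cells of a type and more RNA per cell cannot be told apart.

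**Figure D1:**
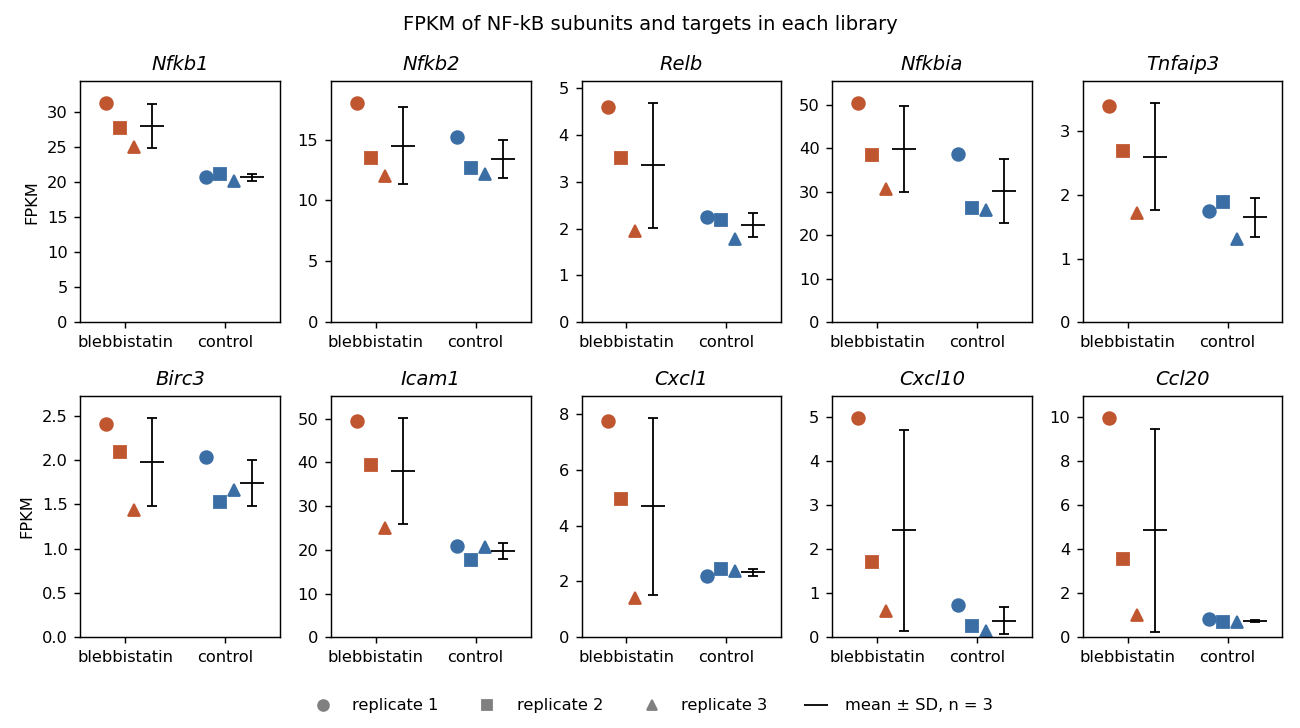
FPKM of each of the 10 genes (vertical axes, starting at 0) in blebbistatin libraries (left) and control libraries (right), with a symbol for each replicate and black bars for the mean and SD of 3 libraries. In every panel blebbistatin replicate 1 is the highest library, and blebbistatin replicate 3 is above all controls only in Nfkb1, Icam1 and Ccl20.

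None of the 10 genes passed the threshold over all genes tested (limma, adjusted p from 0.17 for Nfkb1 to 0.986 for Nfkb2). Of the 11540 genes tested, 9 passed in either direction (0.078%). At an unadjusted p under 0.05, 5 of the 10 genes were higher (Nfkb1, Icam1, Ccl20, Cxcl10 and Tnfaip3) and 0 were lower, where 4.46% of all genes tested were higher, 4.9% were lower and 9.36% were either. The treated and control libraries did not overlap in 3 of the 10 genes (Nfkb1, Icam1 and Ccl20), with blebbistatin higher in each, where 7.48% of all genes tested did not overlap in that direction. The genes were chosen with earlier results of these libraries known, so these counts are descriptions. The median log2 fold change of the 10 genes was 0.44, against 0.01 over all genes tested, and it was 0.42 over the 8 genes with a control mean of at least 1 FPKM. Of those 8 genes, which leave out Ccl20 and Cxcl10, 3 were higher at an unadjusted p under 0.05 (limma) and 0 were lower. In 2 of the 8 the groups did not overlap, with blebbistatin higher.

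Among Nfkb1, Nfkb2 and Relb, Nfkb1 had the smallest SE of the log2 fold change. Nfkb1, on mm10 chromosome 3 from 135584655 to 135691547, encodes the precursor of a DNA-binding subunit of the canonical dimer. It stood at 31.3, 27.7 and 25.0 FPKM in blebbistatin libraries and at 20.8, 21.2 and 20.1 FPKM in control libraries. The lowest treated library was above the highest control, and the treated libraries stood at 1.21 to 1.51 times the control mean. The log2 fold change was 0.41 ± 0.10 (SE, 95% interval 0.19 to 0.64, limma adjusted p = 0.17).

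Relb encodes the transactivating partner in the non-canonical dimer and is itself a target of NF-kB. It stood at 4.60, 3.50 and 1.95 FPKM in blebbistatin libraries and at 2.25, 2.19 and 1.78 FPKM in control libraries. Blebbistatin replicates 1 and 2 were above all controls, and replicate 3 was within them. The log2 fold change was 0.46 ± 0.22 (SE, limma adjusted p = 0.596). Nfkb2, the precursor of the partner of RelB, stood at 18.0, 13.5 and 12.0 FPKM in blebbistatin libraries and at 15.2, 12.7 and 12.2 FPKM in control libraries. Its groups overlapped, and the 95% interval of the log2 fold change ran from -0.25 to 0.44. Exons of Nfkb2 overlap those of Psd, a gene of the other strand, so that fragments may be shared if strand was not kept.

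None of the other core pathway genes passed the test or separated the groups. Rela, the main transactivating subunit of the canonical dimer, stood at 42.0, 35.6 and 30.3 FPKM in blebbistatin libraries and at 39.8, 38.2 and 34.2 FPKM in control libraries, while Rel, the subunit best known from lymphoid cells, was at or below 0.211 FPKM in all 6. A list of 13 subunits, inhibitors and IKK components had 11 tested genes, of which 8 had higher means, 3 had lower means and 0 passed, with a median log2 fold change of 0.10. Leaving out Nfkb1, Nfkb2, Relb and Nfkbia, 4 of 7 had higher means and the median was 0.01. The kinase Ikbkb (17.0, 15.8 and 16.8 FPKM in blebbistatin libraries, 16.2, 16.9 and 18.1 FPKM in control libraries) and the scaffold Ikbkg (6.47, 6.19 and 6.17 FPKM in blebbistatin libraries, 6.28, 6.07 and 6.32 FPKM in control libraries) overlapped between the groups. Bcl3, a nuclear cofactor of NF-kB, stood at 6.01, 4.49 and 1.12 FPKM in blebbistatin libraries and at 2.35, 2.77 and 2.30 FPKM in control libraries, so that treated replicate 3 was the lowest library (log2 fold change 0.32 ± 0.38, SE, limma adjusted p = 0.971). Nfkbiz, an atypical nuclear inhibitor protein, had a lower mean with overlap, at 2.63, 2.24 and 2.29 FPKM in blebbistatin libraries and 2.68, 2.88 and 2.59 FPKM in control libraries, with a log2 fold change of -0.14 ± 0.10 (SE, limma adjusted p = 0.849).

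The feedback inhibitor Nfkbia, which encodes the protein that retains NF-kB in the cytoplasm, had a control among its high libraries. It stood at 50.4, 38.5 and 30.6 FPKM in blebbistatin libraries and at 38.7, 26.2 and 25.8 FPKM in control libraries. Control replicate 1 was above blebbistatin replicates 2 and 3, and the log2 fold change of 0.38 ± 0.21 (SE, limma adjusted p = 0.678) was 0.57 without that control. The microRNA gene Mir1198 overlaps an exon of Nfkbia on the opposite strand. Control replicate 1 was the highest control in 7 of the 10 genes, where 42.2% of all genes tested had it highest.

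Tnfaip3, a ubiquitin-editing enzyme that shuts the pathway down, stood at 3.39, 2.68 and 1.72 FPKM in blebbistatin libraries and at 1.75, 1.89 and 1.30 FPKM in control libraries. Replicates 1 and 2 of the treated group were above all controls, and the log2 fold change was 0.42 ± 0.18 (SE, limma adjusted p = 0.533). Birc3, an inhibitor of apoptosis and ubiquitin ligase of the tumour necrosis factor receptor complex, stood at 2.41, 2.09 and 1.44 FPKM in blebbistatin libraries and at 2.03, 1.53 and 1.66 FPKM in control libraries. Its groups overlapped, with blebbistatin replicate 3 the lowest library of all, and the 95% interval of the log2 fold change ran from -0.23 to 0.45.

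Among the adhesion and chemokine genes of the 10, Icam1 had the highest values. Icam1, an adhesion molecule that binds leukocyte integrins and a known target of NF-kB, lies on mm10 chromosome 9 from 21015960 to 21028796. It stood at 49.5, 39.3 and 25.1 FPKM in blebbistatin libraries and at 20.8, 17.6 and 20.7 FPKM in control libraries. All treated libraries were above all controls, at 2.52, 1.99 and 1.28 times the control mean in replicates 1 to 3. The log2 fold change was 0.87 ± 0.22 (SE, 95% interval 0.37 to 1.36, limma adjusted p = 0.19).

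Among the 10 genes, the 3 chemokines had the widest ratios of means, and Cxcl10 and Ccl20 had the lowest control values. Ccl20, which attracts cells that bear the receptor CCR6, lies on chromosome 1 from 83116766 to 83119167 and stood at 9.98, 3.58 and 1.01 FPKM in blebbistatin libraries and at 0.811, 0.700 and 0.710 FPKM in control libraries. The 3 controls were close together, and the treated libraries were 13.5, 4.84 and 1.37 times their mean. At the estimated depth this corresponds to about 182, 65 and 18 fragments in blebbistatin libraries and 15, 15 and 13 in control libraries, so that replicate 3 was a few fragments above the controls. The log2 fold change was 1.42 ± 0.50 (SE, 95% interval 0.26 to 2.58, limma adjusted p = 0.372).

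Cxcl10, a chemokine induced by interferon as well as by NF-kB, lies on chromosome 5 from 92346639 to 92348889. It stood at 4.97, 1.70 and 0.602 FPKM in blebbistatin libraries and at 0.730, 0.249 and 0.146 FPKM in control libraries. Blebbistatin replicate 3 lay between control replicates 1 and 2, and the values rest on about 135, 46 and 16 fragments in blebbistatin libraries and 20, 8 and 4 in control libraries. The log2 fold change was 1.13 ± 0.42 (SE, limma adjusted p = 0.408), and with a pseudocount of 0.1 it was 2.16. Cxcl1, a neutrophil attractant on chromosome 5 from 90891245 to 90893115, stood at 7.73, 4.96 and 1.40 FPKM in blebbistatin libraries and at 2.18, 2.43 and 2.37 FPKM in control libraries. In this gene blebbistatin replicate 3 was the lowest of the 6 libraries, at 0.602 times the control mean, and the log2 fold change was 0.59 ± 0.40 (SE, 95% interval -0.32 to 1.50, limma adjusted p = 0.823).

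**Figure D2:**
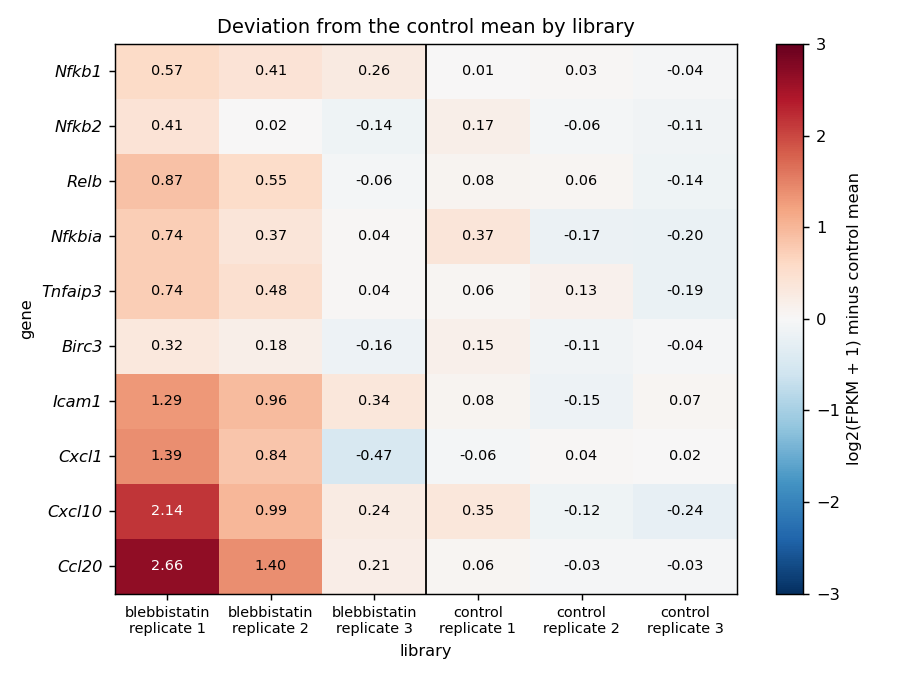
Deviation of each gene (rows) from its control mean in each library (columns, blebbistatin left of the line and control right of it), on the log2(FPKM + 1) scale given by the colour bar and printed in each cell. The deviations reach 2.66 in blebbistatin replicate 1 (Ccl20) and -0.47 in blebbistatin replicate 3 (Cxcl1).

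Leaving out single treated libraries moved these values. Without blebbistatin replicate 3, a choice made because that library lies apart in these same genes, Icam1 passed the threshold with a log2 fold change of 1.13 ± 0.14 (SE, limma adjusted p = 0.0313), and it was the 1 gene of the 10 to do so, where 0.0866% of the 11548 genes then tested passed in that direction. Ccl20 then stood at 2.03 ± 0.31 and Cxcl1 at 1.12 ± 0.17 (SE, limma adjusted p = 0.0634 for both), and the median of the 10 genes was 0.66. At an unadjusted p under 0.05, 8 of the 10 genes were then higher, where 4.16% of all genes then tested were. Of the 8 genes with a control mean of at least 1 FPKM, 6 were then higher. Replicate 3 was the lowest treated library in each of the 10 genes, so leaving it out was bound to raise their fold changes. The pass of Icam1 and these counts are therefore descriptions and add no support. The count of the 10 genes higher at an unadjusted p under 0.05 (limma) was 5 with all libraries. It was 3 without blebbistatin replicate 1 (3.35% of all genes then tested) and 2 without control replicate 2 (5.12%). It was 3 without control replicate 3 (3.58%) and 3 with no filter on low values (3.79%). With array weights it was 6 and with a replicate block 7, and the share over all genes was not counted for these. Blebbistatin replicates 1 and 2 were both above all controls in 8 of the 10 genes, all but Nfkb2 and Nfkbia, where 12.7% of all genes then tested were. This held in 6 of the 8 genes with a control mean of at least 1 FPKM.
Without blebbistatin replicate 1, none of the 10 passed, and the log2 fold change was 0.65 ± 0.18 for Icam1 and 0.33 ± 0.10 for Nfkb1 (SE, limma adjusted p = 0.357 and 0.404). That of Ccl20 was 0.80, that of Cxcl1 was 0.19 and that of Nfkb2 was -0.06, while the mean of Cxcl10 was then under the minimum and it was not tested. Icam1 and Ccl20 thus kept a positive sign without the treated library of the largest values, at 0.65 against 0.87 and at 0.80 against 1.42 with all libraries.

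**Figure D3:**
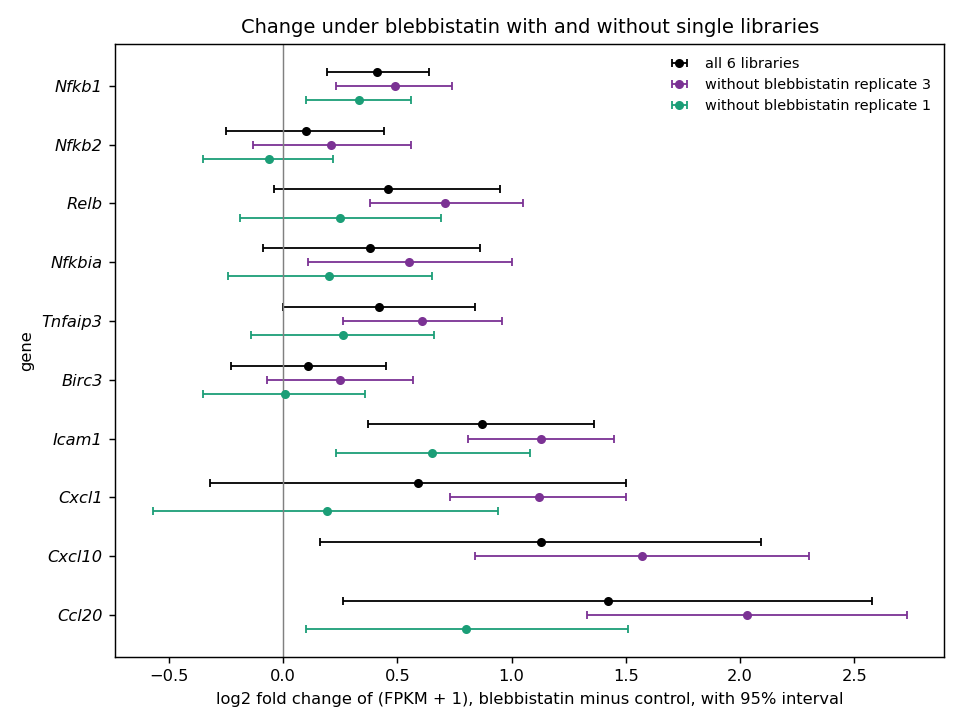
Log2 fold change (FPKM + 1, blebbistatin minus control) of each gene with its 95% interval from limma, for all 6 libraries (black), without blebbistatin replicate 3 (purple) and without blebbistatin replicate 1 (green, no value for Cxcl10). Icam1 runs from 0.65 without replicate 1 to 1.13 without replicate 3.

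For genes with several annotated transcripts, the authors' transcript table splits the gene value. The longer Tnfaip3 transcript of 4422 nt held 3.39, 2.68 and 1.55 FPKM in blebbistatin libraries and 1.36, 1.47 and 1.30 FPKM in control libraries, so that the groups did not overlap in this transcript although they did in the gene. The other Tnfaip3 transcript, of 4337 nt, made up 0.00376%, 0.0703% and 9.57% of the gene in blebbistatin libraries and 22.4%, 22.5% and 0.00482% in control libraries, with overlap. The smallest Nfkb2 transcript, of 2973 nt, held 1.13, 1.06 and 0.785 FPKM in blebbistatin libraries and 0.411, 0.173 and 0.538 FPKM in control libraries, without overlap, and was at most 7.88% of the gene. The Ccl20 transcripts of 802 and 799 nt and the Relb transcripts of 2200 and 2194 nt are nearly the same length, and their shares varied within groups: the 802 nt form was 51.5%, 77.3% and 49.8% of Ccl20 in blebbistatin libraries and 62.3%, 0.0109% and 74.4% in control libraries. The split between forms is uncertain, that of Tnfaip3 included, as the share of its 4337 nt form varied within both groups. How often transcripts of other genes separate the groups was not counted, and transcripts were not tested.

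Other known targets of NF-kB had higher means more often than lower means, without a call over all genes. A list of 39 target genes, 6 of them among the 10 genes, had 21 tested genes, of which 17 had higher means, 4 had lower means and 0 passed, with a median log2 fold change of 0.25. Leaving out the 6, the counts were 11 higher and 4 lower of 15 with a median of 0.14, and 1 gene, Csf1, did not overlap between the groups. Over all genes tested, 55.2% had a log2 fold change above 0 and 7.48% did not overlap with blebbistatin higher, so that the share of 1 in 15 is near the background. Csf1, the growth factor of macrophages, stood at 2.15, 1.38 and 1.28 FPKM in blebbistatin libraries and at 0.653, 0.788 and 0.677 FPKM in control libraries (log2 fold change 0.60 ± 0.15, SE, limma adjusted p = 0.185). It too met the minimum only through the treated group. Tnfaip2, a protein induced by tumour necrosis factor, stood at 21.5, 13.8 and 10.6 FPKM in blebbistatin libraries and at 11.0, 8.98 and 6.83 FPKM in control libraries (0.68 ± 0.24, SE, limma adjusted p = 0.381). Treated replicate 3 was just below control replicate 1 in that gene, and with replicate number as a block it passed the threshold (limma adjusted p = 0.0396).

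Among receptors and adaptors upstream of NF-kB, the ectodysplasin receptor had the widest difference, without passing the test. Of 28 genes 25 were tested, 18 with higher means, 7 with lower means and 0 past the threshold, with a median log2 fold change of 0.05. Edar, the receptor through which ectodysplasin activates NF-kB in ectodermal organs, stood at 0.971, 2.24 and 2.42 FPKM in blebbistatin libraries and at 4.38, 4.83 and 4.29 FPKM in control libraries. All treated libraries were below all controls, with a log2 fold change of -0.98 ± 0.20 (SE, 95% interval -1.43 to -0.52, limma adjusted p = 0.121), and replicate 1, the highest in the 10 genes, was the lowest in Edar. Tnfrsf1a, the main receptor of tumour necrosis factor, was lower as well, at 67.3, 74.7 and 72.8 FPKM in blebbistatin libraries and 93.8, 80.5 and 80.7 FPKM in control libraries (-0.24 ± 0.10, SE, limma adjusted p = 0.475). These 2 were the genes of the list whose groups did not overlap, where 6.8% of all genes tested did not overlap in that direction.

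Tlr3, a receptor for double-stranded RNA, stood at 5.67, 4.95 and 4.47 FPKM in blebbistatin libraries and 2.93, 4.70 and 3.67 FPKM in control libraries (0.35 ± 0.15, SE, limma adjusted p = 0.506). Map3k14, the kinase that starts the non-canonical branch, stood at 3.34, 2.21 and 2.49 FPKM in blebbistatin libraries and 2.25, 1.72 and 1.88 FPKM in control libraries (0.31 ± 0.14, SE, limma adjusted p = 0.554).

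Ligands that start the pathway were near the lower end of detection. None of 11 inflammatory ligands met the minimum of 1 FPKM, and the largest value in any library was 1.17 FPKM, that of Eda in blebbistatin replicate 1. Eda, which encodes ectodysplasin, stood at 1.17, 0.948 and 1.14 FPKM in blebbistatin libraries and at 0.806, 0.785 and 0.867 FPKM in control libraries, without overlap. Among all genes tested, which do not include Eda, 7.48% did not overlap in that direction. Tnf, the tumour necrosis factor gene, was at 0.321, 0.252 and 0.0702 FPKM in blebbistatin libraries and at 0.114, 0.0398 and 0.141 FPKM in control libraries. Il6, an inflammatory cytokine gene, was listed at 0 in all blebbistatin libraries and in control replicates 1 and 3.

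Interferon-stimulated genes were examined because Cxcl10 belongs to that class as well. Of 22 genes 7 were tested, 5 with higher means, 2 with lower means and 0 past the threshold, with a median log2 fold change of 0.18. Tap1, a peptide transporter of antigen presentation, stood at 3.35, 3.01 and 2.21 FPKM in blebbistatin libraries and at 2.63, 1.91 and 1.81 FPKM in control libraries (0.31 ± 0.15, SE, limma adjusted p = 0.626). Stat2, a mediator of interferon signals, stood at 3.11, 3.04 and 3.04 FPKM in blebbistatin libraries and at 2.29, 2.58 and 2.85 FPKM in control libraries, without overlap (0.19 ± 0.10, SE, limma adjusted p = 0.67). Stat2 was the 1 tested gene of the 7 without overlap, where 7.48% of all genes tested did not overlap in that direction. B2m, the light chain of class I antigen molecules, had a log2 fold change of 0.18 ± 0.10 and Irf9, the DNA-binding partner of the STAT proteins, one of -0.13 ± 0.12 (SE, limma adjusted p = 0.69 and 0.941). The chemokines Cxcl9 and Cxcl11, which share a receptor with Cxcl10, were at or below 0.083 FPKM in every library.

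**Figure D4:**
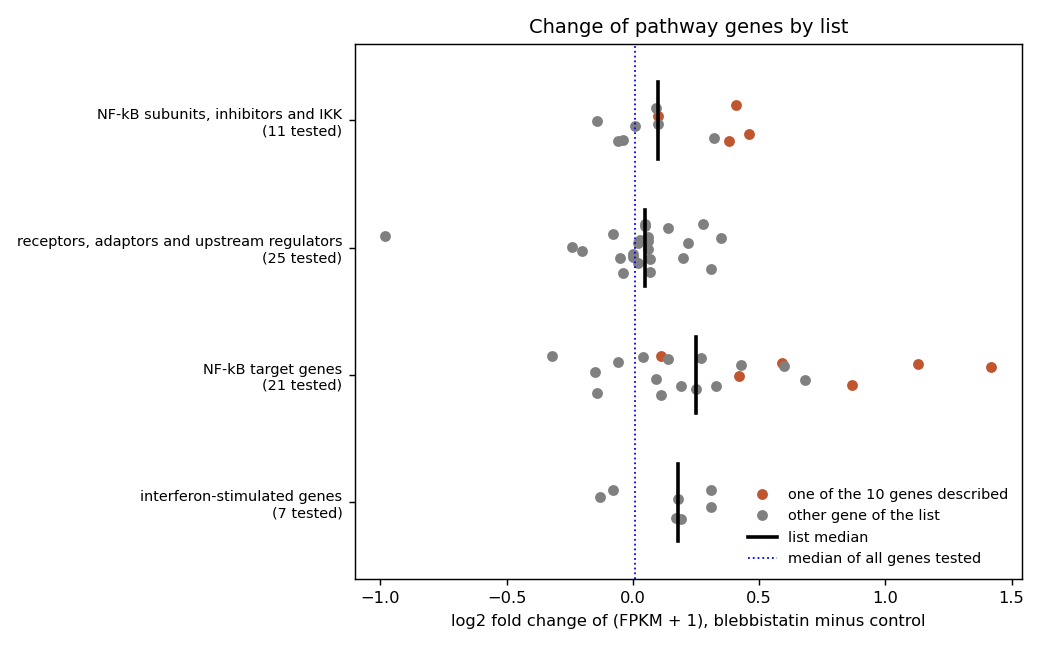
Log2 fold change (FPKM + 1, blebbistatin minus control) of the tested genes in 4 pathway lists, with the 10 genes described here in orange, other genes in grey, the list median as a black bar and the median of all genes tested as a dotted line. The list medians are 0.10, 0.05, 0.25 and 0.18 from top to bottom, against 0.01 for all genes tested, and Edar is the grey point at -0.98.

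Markers of other cell types were examined in the same libraries. The 13 leukocyte markers, among them genes of the cells that chemokines attract, summed to 2.44, 3.95 and 4.71 FPKM in blebbistatin libraries and to 4.09, 3.58 and 4.14 FPKM in control libraries and were lowest in blebbistatin replicate 1. Ptprc, the pan-leukocyte marker, was at 0.0404, 0.0468 and 0.0274 FPKM in blebbistatin libraries and at 0.0202, 0.0169 and 0.0196 FPKM in control libraries, with all treated libraries above all controls. Itgb2, also on this list, was lower without overlap, at or below 0.0628 FPKM in blebbistatin libraries and at or above 0.0743 FPKM in control libraries. Both genes were under the minimum mean and were not tested. The T cell marker Cd3e was listed at 0 in all 6 libraries. The 7 endothelial markers summed to 0.824, 1.02 and 0.987 FPKM in blebbistatin libraries and to 0.658, 0.600 and 0.705 FPKM in control libraries, and 0 of them met the minimum. Pecam1 (0.422, 0.553 and 0.526 against 0.313, 0.303 and 0.382 FPKM) and Tek (0.362, 0.375 and 0.366 against 0.193, 0.193 and 0.220 FPKM) were higher under blebbistatin without overlap. The defining marker Cdh5 went the other way, at 0 in all blebbistatin libraries and at or below 0.0441 FPKM in control libraries. Of all genes tested, which do not include these low genes, 7.48% did not overlap with blebbistatin higher and 6.8% with it lower. Epithelial markers moved between replicates of both groups: 8 of them summed to 1697, 1578 and 1276 FPKM in blebbistatin libraries and to 1734, 1678 and 1351 FPKM in control libraries, with replicate 3 the lowest of each group. The order of the 10 genes, with replicate 1 highest and replicate 3 lowest among treated libraries, was seen in 6 of the 8, while 5 of the 8 had lower means under blebbistatin. Of the basal keratins, Krt14 stood at 236, 208 and 135 FPKM in blebbistatin libraries and 170, 123 and 125 FPKM in control libraries, and Krt5 at 30.2, 14.3 and 11.9 FPKM in blebbistatin libraries and 33.5, 14.3 and 14.8 FPKM in control libraries. The part of these markers in the results for the 10 genes was not tested.

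The 5 genes whose pattern over the 6 libraries was most like that of Icam1 are in none of the pathway lists. Likeness was the root mean square distance between standardised log2(FPKM + 1) values, in SD units, over 8792 other genes with a mean of at least 5 FPKM. The nearest were Snx11, a sorting nexin (0.0928), Vmp1, a membrane protein of autophagy (0.172), Sptssb, a subunit of serine palmitoyltransferase (0.181), Gpr137b-ps (0.189) and Atp6v0a2, a subunit of the vacuolar proton pump (0.194). Their changes were smaller than that of Icam1 (0.87), with log2 fold changes of 0.14 for Snx11 and 0.72 for Sptssb, since standardised values leave out size. Of the genes followed here, Nfkb1 ranked 14, Nfkbia 249 and Nfkb2 912 in this order. With 6 libraries and 8792 genes such an order is a description only.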

How the data were processed

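RNA of E13 ICR submandibular glands was profiled in 3 blebbistatin and 3 control libraries. The submitters' processing notes name Cufflinks 2.2.1, Bowtie2 2.2.3 and TopHat2 2.0.13, and mm10 as the build. Per the file headers, FPKM per gene and per annotated transcript were deposited by the authors. Transcript lengths and exon coordinates come from the deposited files. Columns were matched by name, with BB read as blebbistatin and the unnumbered column of a group as replicate 1. FPKM are scaled values, so no count model was used.

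Genes with a mean of at least 1 FPKM (11540 of 24067) were fitted together on log2(FPKM + 1) in limma (version 3.58.1, under R 4.3.3) with trended moderation of the variance, treatment as the only term, two-sided tests and Benjamini-Hochberg adjustment over all of them. Fold changes are on that scale and understate changes of low genes. The fit was tested on simulated data. Depth was estimated from single-transcript genes at the value of 1 fragment.

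The 10 genes and the lists (NF-kB core, upstream regulators, ligands, targets, interferon-stimulated genes, cell type markers) were chosen with earlier results of these data known. Otulin and Adgre1 were matched by gene number to older symbols. Named genes are the 10, up to 4 of smallest unadjusted p per list, and the 5 most like Icam1. Genes outside this rule are named as examples and were chosen after their values were seen. Alternatives were other filters, pseudocounts, scalings, array weights, a replicate block and leaving out each library.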

Additional observations from a re-analysis of the deposited data

How the results depend on the processing

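Over the 10 genes and the alternatives, 121 of 123 values kept their direction and their side of the threshold. The exceptions were Icam1, which passed without blebbistatin replicate 3, and Nfkb2, whose log2 fold change ran from -0.06 (blebbistatin replicate 1 left out) to 0.21 when single libraries were left out. No value was had for Cxcl10 without blebbistatin replicate 1, or with a minimum of 5 FPKM for genes other than Icam1, Nfkb1, Nfkb2 and Nfkbia. The number of the 10 genes past the threshold ran from 0 to 1 when single libraries were left out and was 0 otherwise, and the median ran from 0.25 (omitting blebbistatin replicate 1) to 0.66 (omitting replicate 3), and was 0.59 with a pseudocount of 0.1. The number of all genes past the threshold, 9, was 57 with array weights, 2 after median-of-ratios rescaling, 27 with a minimum of 5 FPKM, 1 with no filter, 14 after quantile normalization and 144 with a replicate block, and ran from 1 to 19 when single libraries were left out (2 on omitting blebbistatin replicate 1, 4 for replicate 2 and 19 for replicate 3, and 1 on omitting control replicate 1 and 2 for replicate 2). The cause was not tested. The list of target genes had 1 gene past the threshold with the replicate block (Tnfaip2, adjusted p = 0.0396, limma) and 0 to 1 when single libraries were left out. The log2 fold change of Irf9 ran from -0.23 to 0.00452, the last with blebbistatin replicate 3 left out.

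The labels do not say that replicate numbers pair the libraries. Deviations from the group means correlated across genes at 0.182, 0.094 and 0.253 for numbers 1 to 3. Each library correlated best with its own number, but blebbistatin replicate 2 was nearly as close to control replicate 1 (0.08). Deviations within a group depend on each other, so this is a weak hint from the data and not from the design. With the replicate block none of the 10 genes passed, with adjusted p of 0.0688 for Nfkb1, 0.0866 for Nfkbia and 0.105 for Icam1 (limma). Depth limits Cxcl10 and Ccl20, whose control values rest on 4 to 20 estimated fragments.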

Other observations

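Several genes outside the naming rule, chosen after their values were seen, followed the order of the treated libraries. Vcam1, an adhesion molecule for leukocytes, stood at 1.88, 1.14 and 0.416 FPKM in blebbistatin libraries and at 0.407, 0.263 and 0.186 FPKM in control libraries, under the minimum mean and so not tested. Isg15, an interferon-induced modifier protein, stood at 4.26, 3.75 and 0.424 FPKM in blebbistatin libraries and at 3.15, 1.46 and 0.826 FPKM in control libraries, with overlap. Ier3, a stress-induced target of NF-kB, had a lower mean with overlap, at 34.2, 25.6 and 14.8 FPKM in blebbistatin libraries and 35.4, 31.1 and 23.9 FPKM in control libraries (log2 fold change -0.32 ± 0.27, SE, limma adjusted p = 0.90).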
